A study of Homo sapiens with 27 samples.

Results

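The ZFP36, Regnase and Roquin proteins destroy cytokine messages. Their genes were followed in a human monocytic leukaemia line, THP-1, through lipopolysaccharide (LPS), the bacterial cell wall component that activates macrophages, and the glucocorticoid dexamethasone (Dex). Genes were chosen by name, as the rows of both count tables that map to ZFP36, ZFP36L1, ZFP36L2, ZC3H12A, ZC3H12C, ZC3H12D, N4BP1, RC3H1, RC3H2 and XRN1. That gave 10 genes of the 20453 in the tables, and all 10 passed the filter on low counts in both assays.

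Messages for inflammatory proteins are short-lived because their untranslated ends carry elements that call in decay enzymes. ZFP36 (tristetraprolin) and its relatives ZFP36L1 and ZFP36L2 bind AU-rich elements and bring the CCR4-NOT deadenylase, which removes the poly(A) tail. The Regnases, ZC3H12A (Regnase-1), ZC3H12C (Regnase-3) and ZC3H12D (Regnase-4), carry an endonuclease domain, and Regnase-1 cuts messages at stem-loops. N4BP1 has a nuclease domain of the same fold. The Roquins, RC3H1 and RC3H2, bind stem-loops and recruit deadenylase, and the exonuclease XRN1 digests the body of a message once its cap is gone. In macrophages several of these genes are themselves induced by the stimuli whose messages they limit.

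All cells had been differentiated with the phorbol ester PMA at 10 ng/ml for 24 h, which turns THP-1 cells into adherent macrophage-like cells, and were then treated for 3 h. The 3 groups received the vehicle (ethanol in PBS), 100 ng/ml LPS, or 100 ng/ml LPS with 1 µM Dex. The groups used here include none with Dex and no LPS, so each Dex value is an effect in LPS-treated cells. Each group has 4 RNA-seq libraries, which count mRNA, and 5 ribosome profiling libraries, which count the footprints of translating ribosomes. The labels number the libraries of a group without stating that they came from separate cultures, so p-values measure the spread between these libraries, which may be technical. THP-1 is a single cell line, and in such bulk samples a change in the number of cells and in the RNA per cell cannot be told apart.

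Library totals ran from 19 to 30.7 M counts in RNA and from 11.5 to 26.1 M in footprints. The monocytic identity of the line was visible in RNA, where CD68 ran from 538 to 718 CPM (counts per 1 M counts of the library), SPI1 from 706 to 1080 CPM and CSF1R from 651 to 1850 CPM. The other 5 of the 8 monocyte and macrophage genes checked were lower, with ITGAM at 90 to 244 CPM, CD33 at 44.4 to 88.4, CD14 at 7.32 to 36.2, LYZ at 10.9 to 14.8 and FCGR1A at 2.26 to 6.97. CD3E, MS4A1, EPCAM and HBB, of lymphoid, epithelial and erythroid cells, stayed at or under 0.0689 CPM in every RNA library, while ALB of liver ran from 2.98 to 7.43 CPM, a range that overlaps that of FCGR1A. Of the 8 monocyte and macrophage genes, LPS lowered 7 in RNA, where 33.6% of all genes tested fell. In footprints LPS lowered 4 of the 8, where 27.2% of all genes fell. The part of these falls in the results below was not tested. The 3 footprint libraries numbered 4 stood apart. Their median correlation with their own group was 0.9573 to 0.9659, against at least 0.9865 for every other footprint library. Footprint libraries of different groups with the same number deviated together in all 15 pairs (correlation over 0.1), but in 3 of 12 pairs once the libraries numbered 4 were left out. Footprint results are therefore given, where a call changes, with the library number as a block and without the libraries numbered 4.

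On GRCh38.p14, as RefSeq gives it, ZFP36 (ENSG00000128016) spans chr19:39406847-39409407, ZFP36L1 (ENSG00000185650) chr14:68787655-68796243 and ZFP36L2 (ENSG00000152518) chr2:43222402-43226606. The Regnase genes lie apart, ZC3H12A (ENSG00000163874) at chr1:37474580-37484377, ZC3H12C (ENSG00000149289) at chr11:110093392-110171841 and ZC3H12D (ENSG00000178199) at chr6:149446795-149485014. N4BP1 (ENSG00000102921) spans chr16:48538726-48610180, RC3H1 (ENSG00000135870) chr1:173931084-174022357, RC3H2 (ENSG00000056586) chr9:122844556-122905359 and XRN1 (ENSG00000114127) chr3:142306610-142448037. The spans of ZC3H12A, N4BP1, RC3H1, RC3H2 and XRN1 also hold a small RNA gene, a pseudogene or an uncharacterised locus, and the strand setting of the counting is not given in the sources used here.

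Of the 10 genes, 8 matched the RefSeq table of promoters, on GRCh38.p14 (ZFP36L2 and ZC3H12D are not in it). The 250 bases before the start are shown for 6 of them, because these are the genes whose mRNA passed the test at both steps, the addition of LPS and that of Dex. Each runs 5′ to 3′ on the gene's strand, and capitals mark a motif match on either strand. ZFP36 lies at chr19:39406597-39406846 (plus strand), ZFP36L1 at chr14:68796244-68796493 (minus), ZC3H12A at chr1:37474330-37474579 (plus), ZC3H12C at chr11:110093142-110093391 (plus), N4BP1 at chr16:48610181-48610430 (minus) and XRN1 at chr3:142448038-142448287 (minus).
ZFP36: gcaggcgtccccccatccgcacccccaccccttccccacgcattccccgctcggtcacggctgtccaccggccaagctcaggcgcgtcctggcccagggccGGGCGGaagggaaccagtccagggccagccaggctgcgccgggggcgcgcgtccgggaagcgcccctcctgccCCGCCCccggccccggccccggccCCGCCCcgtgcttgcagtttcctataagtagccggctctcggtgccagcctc
ZFP36L1: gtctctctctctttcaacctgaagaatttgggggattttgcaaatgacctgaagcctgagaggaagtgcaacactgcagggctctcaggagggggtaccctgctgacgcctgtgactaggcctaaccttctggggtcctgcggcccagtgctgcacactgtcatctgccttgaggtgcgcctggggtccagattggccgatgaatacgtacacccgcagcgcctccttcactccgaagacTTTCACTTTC
ZC3H12A: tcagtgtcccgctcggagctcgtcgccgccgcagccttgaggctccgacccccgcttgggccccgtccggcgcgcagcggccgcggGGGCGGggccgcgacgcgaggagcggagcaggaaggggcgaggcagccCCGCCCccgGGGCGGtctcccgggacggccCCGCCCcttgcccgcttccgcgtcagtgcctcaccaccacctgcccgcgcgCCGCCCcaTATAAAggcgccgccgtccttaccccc
ZC3H12C: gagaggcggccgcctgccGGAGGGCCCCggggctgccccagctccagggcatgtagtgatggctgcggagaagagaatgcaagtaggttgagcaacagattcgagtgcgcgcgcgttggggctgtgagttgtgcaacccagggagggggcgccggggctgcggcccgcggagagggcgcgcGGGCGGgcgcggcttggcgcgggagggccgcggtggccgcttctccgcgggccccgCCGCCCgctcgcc
N4BP1: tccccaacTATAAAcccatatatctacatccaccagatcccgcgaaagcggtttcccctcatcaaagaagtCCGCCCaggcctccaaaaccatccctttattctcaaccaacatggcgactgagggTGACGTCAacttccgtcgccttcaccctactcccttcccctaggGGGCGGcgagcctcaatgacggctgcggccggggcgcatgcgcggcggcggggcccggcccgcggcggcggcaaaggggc
XRN1: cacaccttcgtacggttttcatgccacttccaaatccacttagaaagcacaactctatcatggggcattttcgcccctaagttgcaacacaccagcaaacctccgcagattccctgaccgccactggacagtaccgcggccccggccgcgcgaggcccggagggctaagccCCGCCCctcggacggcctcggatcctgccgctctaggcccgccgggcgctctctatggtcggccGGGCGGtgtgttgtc

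The motifs searched on both strands were the full glucocorticoid receptor palindrome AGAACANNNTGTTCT, the kappaB site, the cyclic AMP element TGACGTCA, the AP-1 site TGANTCA, the interferon element GAAANNGAAA, the TATA box TATAAA and the GC box GGGCGG. None of the 10 windows of these 8 genes holds the full glucocorticoid palindrome, which only 1 of 35114 promoter windows of this length holds (0.00285%). The ZC3H12A window carries a TATA box at position -27 from the start (found in 10.7% of windows) and 5 GC boxes (at least 1 in 42.6% of windows). The ZFP36 window carries 3 GC boxes and that of XRN1 2. In the ZFP36L1 window the interferon element lies at -10 (3.02% of windows), and another RefSeq start of that gene has a cyclic AMP element at -52 (1.65%). N4BP1 has a cyclic AMP element at -124, a TATA box match at -242 and GC boxes at -179 and -80. ZC3H12C has a kappaB match at -232 (9.96%) and GC boxes at -69 and -13. Of the windows not shown, that of RC3H2 has overlapping kappaB matches at -229 and -228, on opposite strands. That of RC3H1 has a TATA box match at -162. A match is a run of letters and not a tested site. The AP-1 site is spelled out in 6.57% of all windows, and in none of these 10.

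LPS raised the messages of most of these genes, and Dex then split them. A gene is called changed here at an adjusted p under 0.05 in edgeR's quasi-likelihood test, with the Benjamini-Hochberg adjustment over all genes. In RNA, LPS raised 7 of the 10 genes and lowered 1, in a comparison where 62.2% of all 13327 genes tested were called, 28.6% of them up and 33.6% down. In footprints it raised 8 and lowered 1, against 52.6% of 12197 genes called (25.4% up, 27.2% down). Adding Dex to LPS raised 3 mRNAs and lowered 4, where 30.9% of all genes were called (15.5% up, 15.4% down). In footprints Dex raised 3 and lowered 1, against 17.1% of all genes (9.08% up, 7.99% down). With the number block 8 of the 10 were called, but calls over all genes also rose, to 30.9% (16.1% up, 14.8% down). Without the libraries numbered 4 it was again 8, against 31.5% of all genes (16.2% up, 15.3% down).

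The median log2 fold change over the 10 genes was 0.7 in RNA and 0.84 in footprints for LPS against vehicle, where the median over all genes was -0.05 and -0.04. For LPS+Dex against LPS it was -0.17 and -0.08, with all genes at 0.01 and 0.02. Against vehicle, cells with LPS+Dex had 6 of these mRNAs higher and 1 lower (60.2% of all genes called, 29.2% up and 31.0% down) and 8 of the footprint levels higher and 1 lower (46.4%, with 24.4% up and 22.0% down). The libraries of the groups compared did not overlap for 7, 5 and 6 of the 10 mRNAs in LPS against vehicle, LPS+Dex against LPS and LPS+Dex against vehicle, where 52.8%, 34.2% and 52.4% of all genes did so. In footprints it was 6, 4 and 6 genes, against 38.5%, 13.8% and 32.8%. The LPS+Dex comparisons use the same LPS or vehicle libraries as the LPS comparison, so their values are set side by side and are not independent of it.

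**Figure D1:**
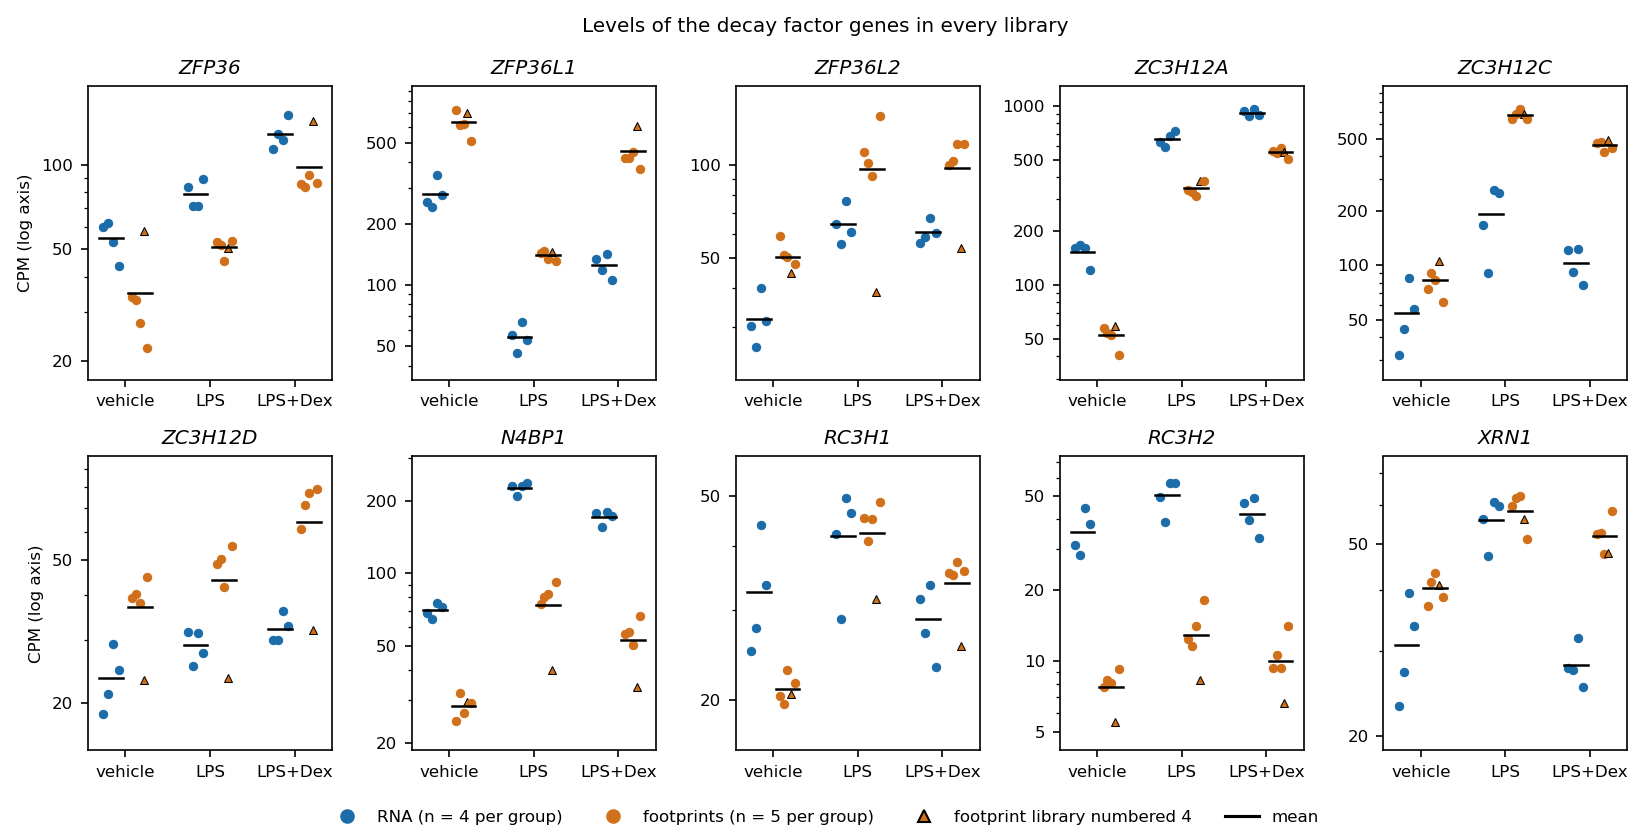
Level of each of the 10 genes in every library, in CPM on a log axis with a separate range per gene; blue points are RNA (4 per group), orange points footprints (5 per group), triangles the footprint libraries numbered 4 and bars group means. ZC3H12A rises at each step from vehicle to LPS to LPS+Dex in both assays, ZFP36L1 is lowest with LPS, and the triangles are the lowest footprint points of all 3 groups in ZFP36L2, ZC3H12D and RC3H2, of both treated groups in N4BP1 and RC3H1, and the highest of the LPS+Dex group in ZFP36, ZFP36L1 and ZC3H12C.

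ZFP36, the founding AU-rich binder, rose with LPS and rose again with Dex. Its mRNA was at 60.3, 62, 53 and 43.7 CPM in the vehicle libraries, at 83.4, 71.7, 71.3 and 89.3 CPM with LPS and at 114, 129, 123 and 151 CPM with LPS+Dex. The 3 groups did not overlap, and every LPS+Dex library lay above every LPS library. The LPS step was 1.44-fold (log2 0.53 ± 0.12 SE, adjusted p = 0.0017) and the Dex step 1.63-fold (log2 0.71 ± 0.12, adjusted p = 0.00043). Footprints were at 33.9, 33.1, 27.4, 58 and 22.2 CPM with vehicle, at 53, 52, 45.4, 50.7 and 53.8 CPM with LPS and at 85.3, 83.8, 92.3, 144 and 86.1 CPM with LPS+Dex. Libraries numbered 4 held the highest value of both the vehicle and the LPS+Dex group, and only through the vehicle one did vehicle and LPS overlap.

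Footprints of ZFP36 were 1.93-fold higher with LPS+Dex than with LPS (log2 0.95 ± 0.22, adjusted p = 0.0062). For LPS against vehicle the footprint change was 1.46-fold (log2 0.55 ± 0.22, adjusted p = 0.044), and it was 0.81 ± 0.10 on the log2 scale (adjusted p = 2.5e-07) without the libraries numbered 4. That call was lost when vehicle library 1, 2, 3 or 5 or LPS library 1, 2, 4 or 5 was left out (adjusted p up to 0.091, log2 0.43 to 0.81 over all single omissions). Against vehicle, ZFP36 in LPS+Dex cells was 2.36-fold higher in mRNA (adjusted p = 1e-06) and 2.82-fold higher in footprints (adjusted p = 5.3e-05).

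ZFP36L1, a paralogue with similar zinc fingers, was the gene of this group that LPS lowered, and Dex brought it part of the way back. The vehicle libraries held 256, 242, 348 and 276 CPM of its mRNA, the LPS libraries 56.8, 45.9, 65.5 and 53.4 CPM, and the LPS+Dex libraries 134, 118, 142 and 106 CPM. No library of any group reached into another. LPS lowered the mRNA 5.06-fold (log2 -2.34 ± 0.14, adjusted p = 4e-09), and with Dex it was 2.25-fold above LPS alone (log2 1.17 ± 0.13, adjusted p = 1.1e-05) and still 2.24-fold below vehicle (log2 -1.17 ± 0.13, adjusted p = 4.1e-06).

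The footprints of ZFP36L1 fell from 720, 612, 616, 696 and 512 CPM to 144, 147, 134, 145 and 131 CPM with LPS, and stood at 421, 421, 450, 607 and 371 CPM with LPS+Dex. The LPS drop was 4.5-fold (log2 -2.17 ± 0.13, adjusted p = 3.9e-09) and the Dex rise 3.24-fold (log2 1.69 ± 0.13, adjusted p = 2.4e-07). In footprints LPS+Dex cells came closer to vehicle than in mRNA, at 1.39-fold lower (log2 -0.48 ± 0.12, adjusted p = 0.0056), with 1 library, LPS+Dex 4, inside the vehicle range and above the other LPS+Dex libraries. The difference between the footprint and the mRNA change is tested further on.

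ZFP36L2 followed LPS alone. Its mRNA ran from 25.9 to 40 CPM with vehicle, from 55.8 to 76.8 CPM with LPS and from 56.2 to 67.3 CPM with LPS+Dex, so that both treated groups lay above vehicle and overlapped each other. The LPS rise was 2.02-fold in mRNA (log2 1.02 ± 0.13, adjusted p = 1e-05) and 1.92-fold in footprints (log2 0.94 ± 0.27, adjusted p = 0.0083). For LPS+Dex against LPS the log2 difference was -0.09 in mRNA (95% interval -0.36 to 0.18, adjusted p = 0.62) and 0.02 in footprints (-0.56 to 0.59, adjusted p = 0.99), with signs that flipped between scalings in footprints. The footprint libraries numbered 4 were low, at 38.8 CPM with LPS where the others held 92.5 to 144 CPM, and at 54.1 CPM with LPS+Dex where the others held 100 to 117 CPM.

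Among the Regnases, ZC3H12A, the endonuclease that cuts IL6 and other cytokine messages, rose at both steps. Its mRNA was at 160, 167, 160 and 121 CPM with vehicle, 626, 591, 679 and 721 CPM with LPS and 935, 872, 958 and 894 CPM with LPS+Dex. Footprints went from 57.5, 54, 52.2, 58.6 and 40.6 CPM to 337, 330, 313, 378 and 379 CPM with LPS and to 562, 544, 581, 554 and 504 CPM with LPS+Dex. The groups were separate at every step and in both assays, the libraries numbered 4 included.

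LPS raised ZC3H12A mRNA 4.31-fold (log2 2.11 ± 0.10, adjusted p = 4e-10) and its footprints 6.6-fold (log2 2.72 ± 0.10, adjusted p = 2.2e-11). Dex added 1.4-fold in mRNA (log2 0.48 ± 0.10, adjusted p = 0.0013) and 1.58-fold in footprints (log2 0.66 ± 0.10, adjusted p = 0.00018). From vehicle to LPS+Dex the footprints had risen 10.4-fold and the mRNA 6.03-fold. ZC3H12A protein is itself cut by the protease MALT1 and marked for destruction after Toll-like receptor signalling, steps that neither assay measures.

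ZC3H12C, a Regnase of macrophages, was raised by LPS and lowered by Dex, and its footprints scattered less between libraries than its mRNA. The mRNA values were scattered, at 31.9, 44.2, 85 and 57.2 CPM with vehicle, 167, 90.7, 261 and 250 CPM with LPS and 121, 91.2, 123 and 78 CPM with LPS+Dex. The LPS and LPS+Dex groups overlapped through LPS library 2. In footprints the same groups held 74.2, 90.9, 82.7, 105 and 62.7 CPM, then 641, 682, 728, 689 and 644 CPM, then 476, 480, 423, 493 and 444 CPM, with no overlap at either step.

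For ZC3H12C, LPS gave 3.51-fold more mRNA (log2 1.81 ± 0.33, adjusted p = 0.00027) and 8.15-fold more footprints (log2 3.03 ± 0.12, adjusted p = 4e-11). Dex lowered the footprints 1.46-fold (log2 -0.55 ± 0.11, adjusted p = 0.0031). In mRNA the Dex fall was 1.86-fold (log2 -0.90 ± 0.32, adjusted p = 0.049). This call ended without the RNA libraries numbered 4 (log2 -0.63, adjusted p = 0.32), and also when vehicle 4, LPS 1, 3 or 4, or any 1 LPS+Dex library was left out (adjusted p up to 0.15). LPS+Dex cells kept more ZC3H12C than vehicle cells, 1.89-fold in mRNA (adjusted p = 0.025, and 0.058 to 0.07 without vehicle 1 or 2 or LPS+Dex 1 or 3) and 5.58-fold in footprints (adjusted p = 3.8e-10).

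ZC3H12D, a Regnase known mainly from lymphocytes, passed the test at neither single step over all libraries, and was higher with LPS+Dex than with vehicle in both assays. Its mRNA ran from 18.6 to 29.2 CPM with vehicle, 25.3 to 31.5 CPM with LPS and 29.9 to 36 CPM with LPS+Dex. LPS changed it 1.23-fold (log2 0.30 ± 0.13, adjusted p = 0.057, and 0.0057 without vehicle 3, 0.033 without LPS 2 or 0.021 by DESeq2). From vehicle to LPS+Dex its mRNA rose 1.37-fold (adjusted p = 0.008), and these groups did not overlap. In footprints, LPS+Dex stood 1.72-fold above vehicle (log2 0.79 ± 0.26, adjusted p = 0.02, and 0.052 without LPS+Dex 5).

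Every footprint library numbered 4 was the lowest of its group for ZC3H12D, at 23.2, 23.4 and 31.9 CPM where the others held 37.9 to 44.7, 42 to 54.6 and 61.2 to 78.7 CPM. With Dex against LPS the footprint log2 change of 0.54 ± 0.26 was not called (adjusted p = 0.18). It was 0.53 ± 0.08 with the number block (adjusted p = 5.1e-05) and 0.56 ± 0.09 without the libraries numbered 4 (adjusted p = 2.1e-05), and LPS+Dex 4 alone left out gave 0.71 (adjusted p = 0.031). LPS against vehicle was likewise called only in those fits, at 0.23 with the block (adjusted p = 0.018) and 0.27 without the libraries numbered 4 (adjusted p = 0.01), against 0.24 (adjusted p = 0.45) over all libraries.

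**Figure D2:**
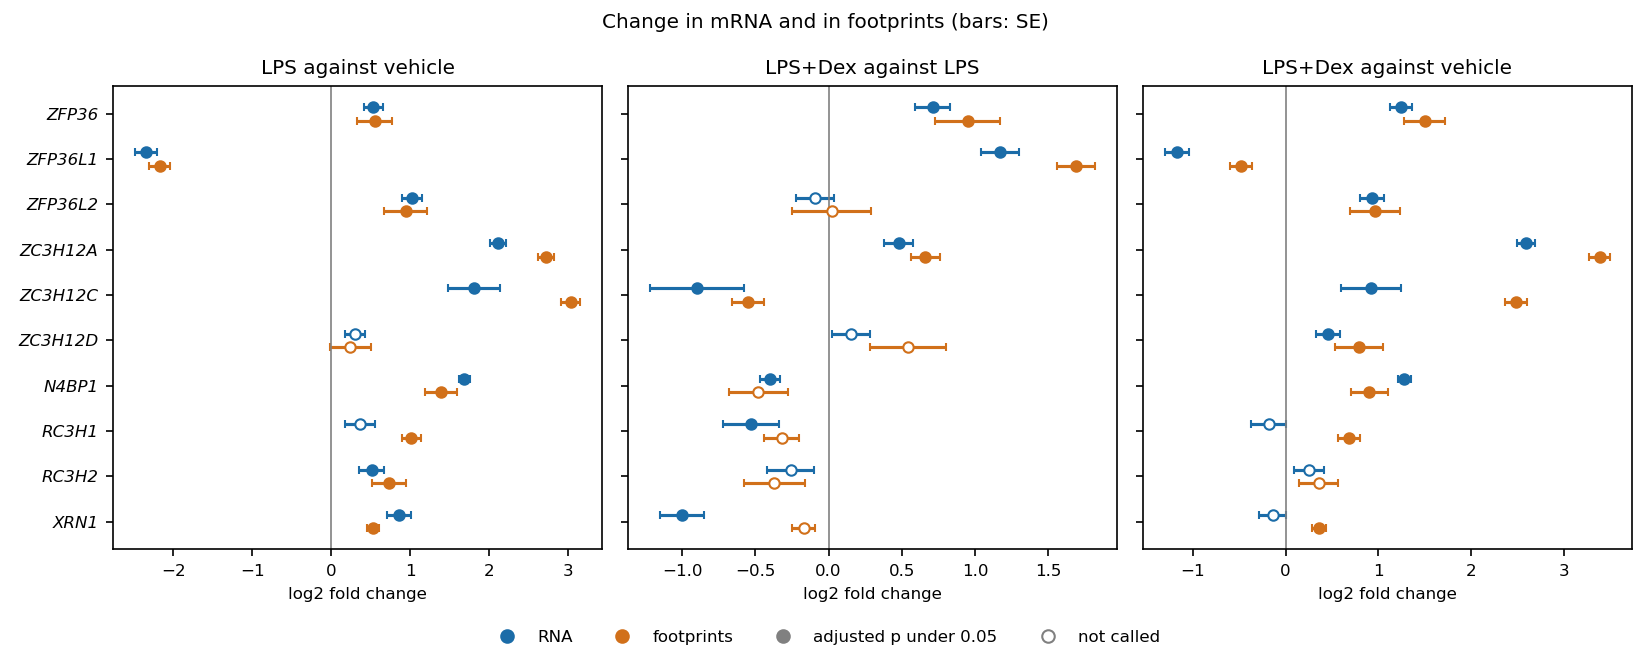
Log2 fold change of the 10 genes in mRNA (blue) and footprints (orange) for the 3 comparisons, with bars of 1 SE; filled points are called at an adjusted p under 0.05. ZFP36L1 is the gene far below 0 after LPS and the highest after Dex, ZC3H12A and ZC3H12C reach the largest footprint changes after LPS, and XRN1 after Dex lies at -1 in mRNA and -0.17 in footprints.

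N4BP1, the Regnase-related nuclease that restrains cytokine output in macrophages, rose with LPS and stepped down with Dex. Its mRNA was at 68.6, 64.9, 75.2 and 73 CPM with vehicle, 230, 208, 229 and 236 CPM with LPS and 177, 156, 179 and 172 CPM with LPS+Dex. The replicates were tight and the 3 groups separate. LPS gave 3.21-fold more mRNA (log2 1.68 ± 0.07, adjusted p = 1.4e-10), and Dex lowered it 1.32-fold (log2 -0.40 ± 0.07, adjusted p = 0.00049).

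Footprints of N4BP1 were at 24.5, 32.1, 26.5, 29.6 and 29.1 CPM with vehicle, 74.8, 80.2, 82.6, 40.1 and 92.4 CPM with LPS and 56.1, 57.3, 50.7, 33.9 and 66.6 CPM with LPS+Dex. The libraries numbered 4 were the low ones in both treated groups. LPS raised the footprints 2.61-fold (log2 1.39 ± 0.20, adjusted p = 4e-05). The Dex change, log2 -0.48 ± 0.20, was not called over all libraries (adjusted p = 0.12). It was called with the number block (-0.47 ± 0.13, adjusted p = 0.011), without the libraries numbered 4 (-0.51 ± 0.09, adjusted p = 9.5e-05) and without LPS 4 alone (-0.64, adjusted p = 0.0071).

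The Roquins rose with LPS in footprints, and RC3H1 did not pass in mRNA. RC3H1, the better known of the pair for silencing messages such as ICOS in T cells, had mRNA at 25, 27.7, 43.9 and 33.6 CPM with vehicle, 42.2, 28.8, 49.5 and 46.3 CPM with LPS and 31.5, 27.1, 33.5 and 23.2 CPM with LPS+Dex. All 3 groups overlapped. LPS changed the mRNA 1.28-fold (log2 0.36 ± 0.19, 95% interval -0.05 to 0.76, adjusted p = 0.12), which was called when vehicle 3 (adjusted p = 0.017) or LPS 2 (adjusted p = 0.023) was left out. The Dex fall of 1.45-fold (log2 -0.53 ± 0.19, adjusted p = 0.049) was lost without the RNA libraries numbered 4 (-0.39, adjusted p = 0.3), and without vehicle 4, LPS 1, 3 or 4, or LPS+Dex 1, 2 or 4 singly (adjusted p up to 0.14).

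In footprints RC3H1 gave a clear LPS response. The vehicle libraries held 20.4, 19.7, 22.9, 20.6 and 21.6 CPM, the LPS libraries 45.2, 40.9, 45.1, 31.5 and 48.7 CPM and the LPS+Dex libraries 35.4, 35.1, 37.1, 25.5 and 35.7 CPM. Vehicle lay below all treated libraries, and LPS reached into the LPS+Dex range only through LPS 4. LPS raised the footprints 2.01-fold (log2 1.01 ± 0.12, adjusted p = 4.9e-06), and LPS+Dex kept them 1.61-fold above vehicle (adjusted p = 0.00024). With Dex against LPS they changed by log2 -0.32 ± 0.12 (adjusted p = 0.075). That drop was called with the number block (-0.32 ± 0.08, adjusted p = 0.005), without the libraries numbered 4 (-0.33 ± 0.07, adjusted p = 0.0012) and without LPS 4 alone (-0.41, adjusted p = 0.0089). DESeq2 over all libraries also called it (-0.34 ± 0.13, adjusted p = 0.042), and RLE factors, no filter and only the groups compared did not.

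RC3H2, which overlaps RC3H1 in function, rose with LPS 1.43-fold in mRNA (log2 0.51 ± 0.16, adjusted p = 0.015) and 1.66-fold in footprints (log2 0.73 ± 0.21, adjusted p = 0.0091). The mRNA ran from 28.2 to 44.5 CPM with vehicle and from 39 to 57.2 CPM with LPS, and the footprints from 5.5 to 9.22 CPM and from 8.28 to 18.1 CPM, so the groups overlapped in both assays. The footprint libraries numbered 4 were the lowest of each group, at 5.5 CPM with vehicle, 8.28 with LPS and 6.63 with LPS+Dex. Dex gave log2 changes of -0.26 ± 0.16 in mRNA (adjusted p = 0.25) and -0.37 ± 0.21 in footprints (adjusted p = 0.29). The footprint change was called with the number block (-0.36 ± 0.09, adjusted p = 0.0069) and without the libraries numbered 4 (-0.37 ± 0.14, adjusted p = 0.048). The same held for LPS+Dex against vehicle, at 0.36 ± 0.21 over all libraries (adjusted p = 0.18), 0.36 ± 0.10 with the block (adjusted p = 0.0042) and 0.38 ± 0.14 without the libraries numbered 4 (adjusted p = 0.024).

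XRN1, which finishes decay from the decapped end, rose with LPS in mRNA and fell back with Dex. The values were 23.1, 27.1, 39.6 and 33.7 CPM with vehicle, 56.2, 47.2, 60.8 and 59.8 CPM with LPS and 27.6, 27.4, 31.9 and 25.3 CPM with LPS+Dex. The LPS libraries lay above all others, and LPS+Dex fell inside the vehicle range. LPS gave 1.81-fold more XRN1 mRNA (log2 0.86 ± 0.15, adjusted p = 0.00016) and Dex lowered it 2-fold (log2 -1 ± 0.15, adjusted p = 0.00013), to a level that did not differ detectably from vehicle (log2 -0.14, 95% interval -0.46 to 0.18, adjusted p = 0.43).

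The footprints of XRN1 stayed above vehicle under Dex. They were at 37.1, 41.6, 43.5, 41.1 and 38.7 CPM with vehicle, 59.7, 62.2, 62.6, 56.2 and 51.2 CPM with LPS and 52.4, 52.7, 47.5, 47.7 and 58.3 CPM with LPS+Dex. The LPS and LPS+Dex groups overlapped, and both lay above vehicle. LPS raised the footprints 1.44-fold (log2 0.53 ± 0.08, adjusted p = 4.1e-05), the Dex change was log2 -0.17 ± 0.08 (95% interval -0.34 to -0.01, adjusted p = 0.16), and LPS+Dex stayed 1.28-fold above vehicle (adjusted p = 0.0015).

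ZFP36L1, ZC3H12C, RC3H1, RC3H2 and XRN1 also shared their scatter among RNA libraries of a group. In these 5 genes vehicle library 3 was the highest of the vehicle group, LPS library 2 the lowest of the LPS group and LPS+Dex library 4 the lowest of the LPS+Dex group. In ZFP36L2, ZC3H12D and N4BP1 the first 2 of these positions were the same and the third was not. The part of this shared scatter in the changes of these genes was not tested.

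Ribosome load per message, called translational efficiency (TE), was compared between treatments in a joint fit of all 27 libraries, as the difference between a gene's log2 change in footprints and in mRNA. TE rose for 1 of the 10 genes, ZC3H12A, with LPS and for 4 of them between vehicle and LPS+Dex. Called genes were rare in these tests, at 1.78% of 11944 genes for LPS against vehicle (1.02% higher), 1.93% for LPS+Dex against vehicle (1.32% higher) and 0.0502% for LPS+Dex against LPS (0.0419% higher). The median log2 change in TE of the 10 genes was 0.13, 0.44 and 0.22 in these comparisons, with all genes at 0.01, 0.04 and 0.04.

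**Figure D3:**
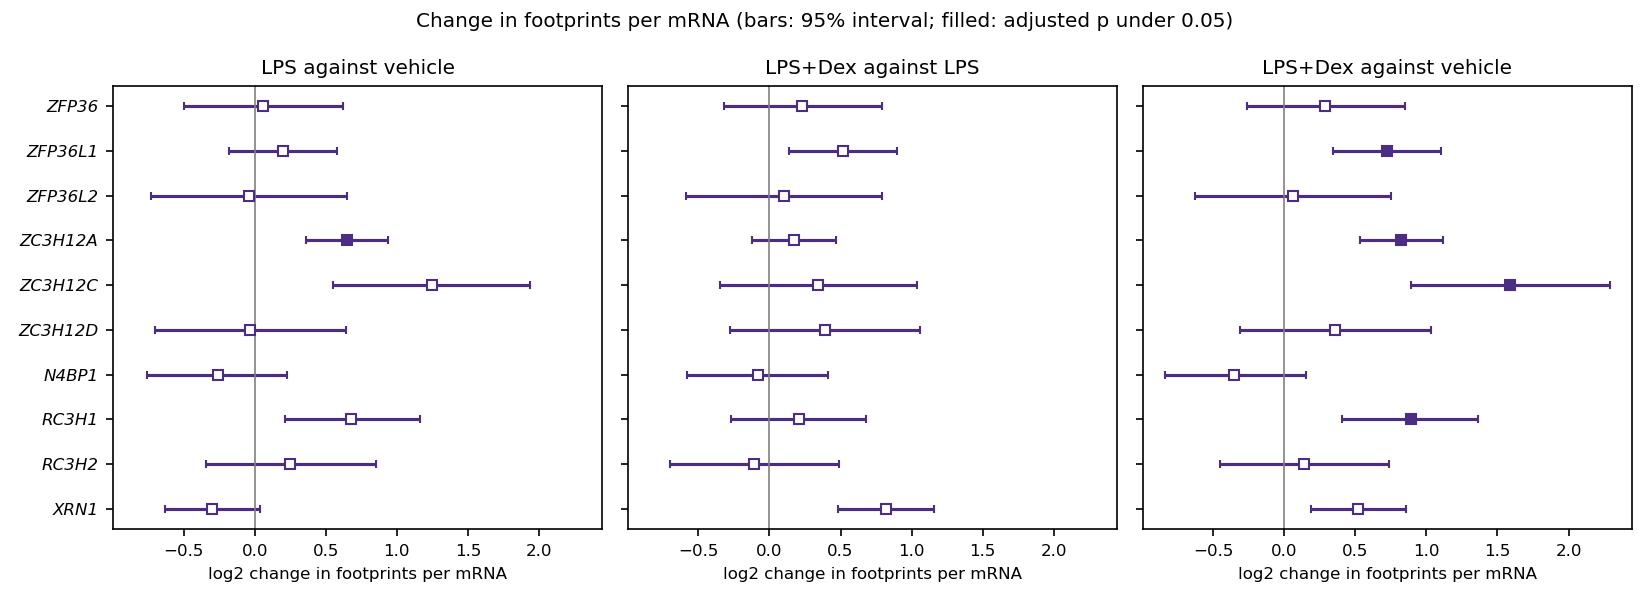
Log2 change in footprints per mRNA of the 10 genes in the 3 comparisons, with 95% intervals; filled squares are called at an adjusted p under 0.05. ZC3H12A is filled for LPS against vehicle, no gene is filled for LPS+Dex against LPS although XRN1 lies at 0.82, and ZFP36L1, ZC3H12A, ZC3H12C and RC3H1 are filled for LPS+Dex against vehicle.

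ZC3H12A carried 0.346 footprint CPM per RNA CPM with vehicle, 0.531 with LPS and 0.6 with LPS+Dex (ratios of the group means). Its TE rose 1.57-fold with LPS (log2 0.65 ± 0.14, adjusted p = 0.015, and 0.63, adjusted p = 0.078, when only the groups compared were fitted) and 1.77-fold from vehicle to LPS+Dex (log2 0.82 ± 0.14, adjusted p = 0.0017). For ZC3H12C the ratio went from 1.52 to 3.52 to 4.48. The LPS step, log2 1.25 ± 0.34, was not called (adjusted p = 0.057). It was called with the number block (1.28 ± 0.25, adjusted p = 0.0024), without the footprint libraries numbered 4 (1.32, adjusted p = 0.019), by DESeq2 (adjusted p = 0.017), and without footprint vehicle 4 or RNA vehicle 1, LPS 3 or LPS 4 singly (adjusted p 0.023 to 0.043). From vehicle to LPS+Dex the TE of ZC3H12C rose 3.01-fold (log2 1.59 ± 0.34, adjusted p = 0.012).

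ZFP36L1 and RC3H1 were called in TE between vehicle and LPS+Dex close to the threshold. The ratio of ZFP36L1 went from 2.25 with vehicle to 2.53 with LPS and 3.63 with LPS+Dex, a rise of 1.64-fold over both steps (log2 0.72 ± 0.18, adjusted p = 0.042). That of RC3H1 went from 0.646 to 1.01 to 1.17, a rise of 1.85-fold (log2 0.89 ± 0.23, adjusted p = 0.045). Each call was lost in 18 of the 27 fits that left out 1 library, with adjusted p up to 0.12 for ZFP36L1 and 0.13 for RC3H1. The ZFP36L1 call held without footprint library vehicle 1, vehicle 4, LPS 4 or LPS+Dex 5, and that of RC3H1 without footprint library vehicle 4, LPS 4, LPS 5 or LPS+Dex 4. Both held without RNA library vehicle 1, vehicle 2, LPS 2, LPS 3 or LPS+Dex 3. The ZFP36L1 call also ended with RLE factors (adjusted p = 0.052), with no filter (0.079) and with only the groups compared (0.097), and that of RC3H1 with no filter (0.079). With the number block the adjusted p was 0.00045 for ZFP36L1 and 0.0014 for RC3H1. With that block RC3H1 was also called for LPS against vehicle, at 0.67 ± 0.16 (adjusted p = 0.011), and without the footprint libraries numbered 4 at 0.75 ± 0.20 (adjusted p = 0.027), where the fit over all libraries without a block gave 0.68 ± 0.23 (adjusted p = 0.16).

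In the comparison of LPS+Dex with LPS no gene of the 10 was called in TE, and 2, ZFP36L1 and XRN1, had an unadjusted p under 0.05. XRN1 had 1.31 footprint CPM per RNA CPM with vehicle, 1.04 with LPS and 1.84 with LPS+Dex. Its change with Dex was 1.77-fold (log2 0.82 ± 0.16, adjusted p = 0.053). DESeq2 called it (adjusted p = 0.0013), as did the number block (0.82 ± 0.14, adjusted p = 0.004). So did the fits without the footprint libraries numbered 4 and with only the groups compared (adjusted p = 0.02 in each). RLE factors (0.044) and scaling over all 27 libraries together (0.047) also gave a call, and the fit with no filter did not. The adjusted p of this change over all 27 single omissions ran from 0.015 to 0.19. It passed without footprint LPS+Dex 4 (adjusted p = 0.036) and without RNA vehicle 1 (0.015), vehicle 3 (0.017) or LPS 2 (0.041). From vehicle to LPS+Dex the TE of XRN1 changed by log2 0.52 ± 0.16 (adjusted p = 0.11), called with the number block (0.51, adjusted p = 0.02), without the footprint libraries numbered 4 (0.55, adjusted p = 0.046) and without RNA vehicle 1 (0.64, adjusted p = 0.023). ZFP36L1 changed by log2 0.52 ± 0.19 with Dex against LPS (adjusted p = 0.75).

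ZFP36, ZFP36L2, ZC3H12D, N4BP1 and RC3H2 were not called in TE in any comparison. Of these, N4BP1 had the lowest estimates, at log2 -0.26 (95% interval -0.76 to 0.23) with LPS and -0.35 (-0.84 to 0.15) from vehicle to LPS+Dex. For ZFP36L2 the estimates were -0.04 (-0.73 to 0.65) and 0.06 (-0.63 to 0.75), so changes within those intervals were not excluded.

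Around these 10 genes, 6 lists of partners, regulators and targets were counted, each beside the share of all genes called in the same comparison. The deadenylases that the ZFP36 and Roquin proteins recruit were called about as often as other genes. Of 19 CCR4-NOT and deadenylation genes, LPS raised 7 mRNAs (36.8%) and lowered 6 (31.6%), where 28.6% of all genes rose and 33.6% fell. Dex raised 1 and lowered 4, or 26.3% called against 30.9% of all genes. The median log2 change was -0.03 with LPS and 0.01 with Dex, against -0.05 and 0.01 over all genes. BTG2, which stimulates deadenylation, rose 1.42 ± 0.14 on the log2 scale with LPS and fell by 1.86 ± 0.15 with Dex, from 57.2 ± 11.1 CPM (SD, n = 4) with vehicle to 153 ± 25.9 and then 42.3 ± 3.92 CPM. PAN2, a poly(A) nuclease, fell with LPS by 0.95 ± 0.09 in mRNA, while its footprints changed by 0.06 ± 0.11 (adjusted p = 0.71). PAN2 was the member of this list called in TE, at 1.03 ± 0.15 (adjusted p = 0.00035). TNKS1BP1, a CCR4-NOT partner, was the one that rose with Dex, by 0.26 ± 0.07 (adjusted p = 0.01). That call ended without the RNA libraries numbered 4 (0.19, adjusted p = 0.078), where 0 of the list were higher and 2 lower. In footprints its change of 0.27 was called with the number block (0.28, adjusted p = 0.015) and not over all libraries (adjusted p = 0.53).

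Of 17 decapping and related decay genes, LPS raised 4 and lowered 1 in mRNA (29.4% called against 62.2% of all genes, median log2 change 0.11), led by PATL1, a decapping scaffold, at 1.25 ± 0.12 (adjusted p = 7.9e-07), with LSM4 at -0.53 ± 0.11. Dex lowered 3 mRNAs of that list (17.6% against 30.9%, median 0.03), with DCP1A, a subunit of the decapping complex, at -0.82 ± 0.26 (adjusted p = 0.028). All 3 calls were lost without the RNA libraries numbered 4. In footprints Dex lowered 3 (against 7.99% of all genes), and 6 with the number block, where 14.8% of all genes fell. Without the footprint libraries numbered 4 it lowered 4, where 15.3% of all genes fell. Of 16 exosome and Ski genes LPS raised 7 and lowered 1 in mRNA (50% called against 62.2% of all genes, median 0.2). Dex raised 2 and lowered 1 (18.8% against 30.9%, median 0.06). EXOSC9, a ring subunit, was the highest at 0.75 ± 0.09 and fell with Dex by 0.30 ± 0.09. DIS3L, a cytoplasmic exosome nuclease, was the one lowered, at -1.08 ± 0.09 in mRNA and -1.53 ± 0.26 in footprints, and its mRNA rose with Dex by 0.29 ± 0.09.

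Of 15 other binders of AU-rich and stem-loop messages, LPS raised 8 in mRNA and lowered 1 (60% called against 62.2% of all genes, median log2 change 0.18). ZC3HAV1, an antiviral CCCH zinc finger protein, went from 41.3 ± 17.7 to 645 ± 125 CPM (log2 3.96 ± 0.27) and to 364 ± 33.8 CPM with Dex (log2 -0.82 ± 0.24, adjusted p = 0.018, and -0.67, adjusted p = 0.13, without the RNA libraries numbered 4). TIA1, a translational repressor of TNF mRNA, was the one lower with LPS in mRNA, at log2 -0.24 ± 0.07. Its footprints were not called (-0.13 ± 0.09, adjusted p = 0.25). With Dex 1 of this list rose and 3 fell (26.7% called against 30.9%, median -0.03), and 1 rose and 1 fell without the RNA libraries numbered 4. ARID5A, which stabilises IL6 mRNA against Regnase-1, rose by 0.53 ± 0.14 with LPS and fell by 0.89 ± 0.15 with Dex in mRNA. Its footprints changed by 0.26 ± 0.23 with LPS (adjusted p = 0.36) and by -0.9 ± 0.23 with Dex (adjusted p = 0.013). IGF2BP2 was the one that rose with Dex, at 0.90 ± 0.10.

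The enzymes that switch these proteins on and off were counted next. Of 15 such kinases, phosphatases and proteases LPS raised 9 mRNAs and lowered 3 (80% called against 62.2% of all genes, median log2 change 0.38), and Dex raised 3 and lowered 3 (40% against 30.9%, median 0.1). DUSP1, the phosphatase that turns off p38 and so favours active ZFP36, rose at both steps, from 18.9 ± 2.85 CPM to 71.1 ± 14.6 and 408 ± 8.74 CPM, with Dex adding 2.52 ± 0.14 on the log2 scale in mRNA and 2.84 ± 0.47 in footprints. MAPKAPK3, a kinase downstream of p38, fell with LPS by 1.04 ± 0.14. MALT1, the protease that cuts Regnase-1 and N4BP1, fell with LPS by 0.36 ± 0.10 in mRNA. Its footprints changed with LPS by -0.12 ± 0.17 and were not called (adjusted p = 0.57). With Dex MALT1 fell by 0.52 ± 0.11 in mRNA (adjusted p = 0.0016) and by 0.68 ± 0.17 in footprints (adjusted p = 0.012).

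Of 20 messages reported as targets of these decay proteins, LPS raised all 20 in mRNA, with a median log2 change of 3.68, and Dex lowered 18, with a median of -1.22, where 28.6% of all genes rose with LPS and 15.4% fell with Dex. IL6 went from 0.291 ± 0.0788 CPM to 26.1 ± 3.02 CPM and to 5.05 ± 0.678 CPM with Dex. TNF went from 53.3 ± 13.4 to 1210 ± 148 and to 770 ± 54.3 CPM. CCL2 had the largest Dex fall, at log2 -3.20 ± 0.18. CCL20 (0.23 ± 0.09, adjusted p = 0.07) and NFKBIZ (0.26 ± 0.13, adjusted p = 0.16), named because only they were not called, did not pass over all libraries. With the number block, and also without the RNA libraries numbered 4, 1 of the 20 mRNAs was higher with Dex and 18 lower. CCL20 was called higher with the block (0.24 ± 0.07, adjusted p = 0.014) and not without those libraries (0.2 ± 0.11, adjusted p = 0.26).

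In footprints LPS raised 19 of the 20 target messages, where 25.4% of all genes rose. Dex lowered 7 (against 7.99% of all genes) and raised 1 (against 9.08%), NFKBIZ (0.51 ± 0.12, adjusted p = 0.0079), an exception named after its value was seen. With the number block, and also without the libraries numbered 4, it was 18 lower and 1 higher, where 14.8% and 15.3% of all genes fell. IL6 footprints fell with Dex by 2.74 ± 0.19, and the TNF footprint change was -0.91 ± 0.67 (adjusted p = 0.44), called with the number block (-0.89, adjusted p = 0.0011) and without the libraries numbered 4 (-0.86, adjusted p = 4.8e-06). These lists were drawn up from general knowledge with results of these data known, and the counts are a description; counting them with the number block and without the libraries numbered 4 was chosen after seeing the data.

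**Figure D4:**
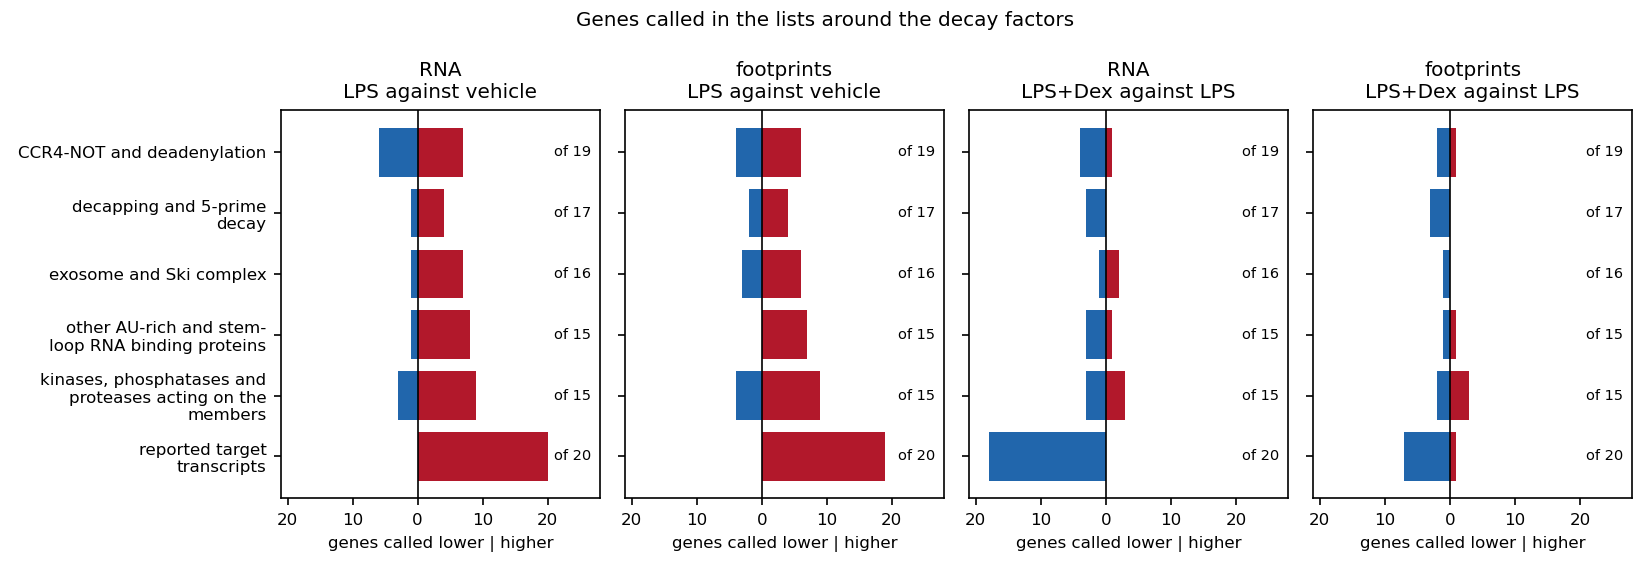
Number of genes called lower (blue, left) and higher (red, right) in the 6 lists around the decay factors, for RNA and footprints in LPS against vehicle and in LPS+Dex against LPS, with the number tested at the right of each row. The target messages stand out with 20 of 20 higher after LPS and 18 of 20 lower after Dex in RNA, while the machinery lists hold calls in both directions after LPS in RNA.

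The genes whose mRNA profile over the 12 RNA libraries was most like that of 3 of these genes were picked among 8458 candidates with at least 5 CPM in both assays. ZFP36 was most like YPEL5 (Pearson r = 0.98), JUN (0.972), an AP-1 subunit, and RNF115 (0.968), a ubiquitin ligase. Over the 15 footprint libraries the same pairs had r = 0.712, 0.782 and 0.791. All 3 rose with LPS and again with Dex in mRNA, JUN by 0.51 ± 0.11 and then 0.88 ± 0.11 on the log2 scale. For ZFP36L1 the nearest were FUCA1, a lysosomal fucosidase, CHD7, a chromatin remodeller, and DNM2, a dynamin, each at 0.99, with 0.714, 0.972 and 0.892 in footprints. All 3 fell with LPS in mRNA, at log2 -1.30 ± 0.08 for FUCA1, -0.82 ± 0.07 for CHD7 and -0.40 ± 0.06 for DNM2.

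ZC3H12A was most like LCP2, an adaptor of immune receptors (0.996), MFSD2A, a lipid transporter (0.995), and UBE2E1, a ubiquitin-conjugating enzyme (0.995), with 0.975, 0.93 and 0.962 in footprints. MFSD2A mRNA rose 3.29 ± 0.07 on the log2 scale with LPS and a further 0.54 ± 0.06 with Dex. In footprints the Dex change was not called for MFSD2A (0.6 ± 0.56, adjusted p = 0.57) or UBE2E1 (0.16 ± 0.12, adjusted p = 0.45). It was called for LCP2 (0.79 ± 0.18, adjusted p = 0.007). The points of these correlations share 3 treatments and library depth, and no test was made of them.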

How the data were processed

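RNA-seq (poly(A), stranded TruSeq kit, per the labels) and ribosome profiling were run on lysates of the same cells. The authors deposited raw read counts per Ensembl gene, 1 table per assay, with 27 libraries and 20453 genes. The build was GRCh38/hg38 and the tools named are DESeq2 1.26.0, featureCounts 2.0.1, STAR 2.7.10a and, for footprints, Bowtie2 2.4.5, per the submitters' processing notes. Not given in the sources used here are their roles, the annotation, the counted feature and the strand setting.

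Counts were tested with edgeR 4.0.16 (R 4.3.3), with filterByExpr (minimum count 10, minimum total 15), TMM scaling and the 2-sided quasi-likelihood F test, adjusted by Benjamini-Hochberg over all genes of a comparison. RNA (12 libraries) and footprints (15) were fitted separately with 3 groups each. TE was the interaction in 1 fit over 27 libraries with TMM within each assay. RNA and footprint libraries may be matched through shared lysates, which this fit did not model. CPM use TMM-scaled library sizes, and group values are mean ± SD. Changes are relative to the average gene. Alternatives were DESeq2 1.42.0, RLE factors, no filter, the number as a block, libraries numbered 4 left out, only the groups compared, joint TMM for TE, and each library left out. The models were also run on simulated counts with the same spread for all genes and independent libraries, and that outcome is not given here. Those counts lacked the shared deviation of the footprint libraries numbered 4, so they cannot speak to calls that depend on it.

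The 10 genes and the 6 lists were chosen with earlier results of these data known. Named were all 10 genes, TNF and IL6, and the 3 genes most like ZFP36, ZFP36L1 and ZC3H12A. For each list the called genes with the largest rise and fall in RNA were named for LPS against vehicle and LPS+Dex against LPS. The extremes of LPS+Dex against vehicle were not used to choose names. CCL20 and NFKBIZ were named as exceptions in the target list. No 2 libraries of a group agreed within sampling noise (chi-square per degree of freedom at least 3.34).

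Pairing by number was checked on the deviations of libraries from their group mean. In footprints all 15 same-number pairs had a correlation of these deviations over 0.1 (median 0.271), against 34 of 60 pairs of different numbers. Without the libraries numbered 4 it was 3 of 12 (median 0.0453, against -0.0169 for different numbers), so pairing was not shown for the other footprint libraries. In RNA it was 7 of 12 (median 0.207), and 6 of 9 without the libraries numbered 4 (median 0.276, against -0.174 for different numbers). Since not every pair passed, RNA libraries were treated as sharing only a number. A marker gene checked in these libraries is not reported here.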

Additional observations from a re-analysis of the deposited data

Results flagged for a closer look

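In 4 of the 60 groups of values (10 genes, 6 groups of libraries) the highest or lowest library lay farther from the rest than Dixon's limit allows, where chance gives about 1 in 20. For ZFP36 footprints, LPS+Dex library 4 held 144 CPM and the others 83.8 to 92.3 CPM. ZFP36L2 footprints were at 54.1 CPM in LPS+Dex library 4, against 100 to 117 CPM. RC3H1 footprints were at 25.5 CPM in that library, against 35.1 to 37.1 CPM. ZC3H12A mRNA was at 121 CPM in RNA vehicle library 4, against 160 to 167 CPM. Thus 3 of the 4 values came from a footprint library numbered 4.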

How the results depend on the processing

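Of 570 values of single genes under the other settings, 528 kept their direction and side of the threshold, 30 gained a call, 7 lost one and 5 changed sign. The 5 were all ZFP36L2 near 0: footprints with LPS+Dex against LPS were -4e-05 by DESeq2, -4e-04 with RLE factors and -0.03 without the libraries numbered 4, TE for LPS+Dex against vehicle -0.01 with the replicate block, and TE for LPS against vehicle 0.1 without the libraries numbered 4. The cause was not tested.

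The replicate block moved the genes called in footprints for LPS+Dex against LPS from 4 to 8 (all genes 2083 to 3769), and leaving out the libraries numbered 4 to 8 (3855). In TE for LPS against vehicle 1 was called, and 3 with the block, 3 without the libraries numbered 4, 2 by DESeq2 and 0 with only the groups compared (all genes 213, 878, 699, 435 and 128). For LPS+Dex against LPS 0 became 1 under each of these 4 settings, RLE factors and joint TMM (all genes 6, and 66 with the block, 51 without the libraries numbered 4, 25 by DESeq2). For LPS+Dex against vehicle 4 became 2 with no filter, and all genes 231 became 1453 with the block, 1023 without the libraries numbered 4 and 467 by DESeq2. In RNA, where not every same-number pair deviated together, the block changed 2 calls of these genes, for LPS against vehicle: ZC3H12D (adjusted p = 0.016) and RC3H1 (0.037).

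With each library left out, the called genes ranged from 8 to 10, 5 to 7 and 6 to 7 in RNA, 8 to 9, 4 to 6 and 8 to 9 in footprints, and 1 to 2, 0 to 1 and 2 to 5 in TE (LPS against vehicle, LPS+Dex against LPS, LPS+Dex against vehicle). Of 1620 such values 1509 kept direction and call, 64 lost a call, 16 gained one and 31 changed sign, none of them a called change. Those with a change of sign ranged, for ZFP36L2, from -0.19 to 0.2 in footprints and -0.15 to 0.01 in RNA with LPS+Dex against LPS, and in TE from -0.24 to 0.15, -0.1 to 0.28 and -0.07 to 0.2. Others in TE were ZFP36 (-0.07 to 0.3) and ZC3H12D (-0.17 to 0.12) for LPS against vehicle, N4BP1 (-0.24 to 0.04) and RC3H2 (-0.27 to 0.04) for LPS+Dex against LPS and RC3H2 (-0.02 to 0.24) for LPS+Dex against vehicle. In RNA, LPS+Dex against vehicle, they were RC3H1 (-0.28 to 0.0014) and XRN1 (-0.26 to 0.0036). The 5 libraries or fewer per group limit the detectable change, and TE adds the errors of both assays.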
